A study of Mus musculus with 24 samples.

Results

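Mitotic kinesins are motor proteins that walk along, slide or shorten microtubules while a cell divides. The 10 genes described here are *Kif11*, *Kif15*, *Kif4*, *Kif22*, *Kif2c*, *Kif18a*, *Kif23*, *Kif20a*, *Kif20b* and *Kif14*. They were chosen by name, with earlier results of these data known. Their rows are those of the deposited tables whose gene identifiers belong to these symbols. All 10 were found among the 49315 genes of each table.

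Their roles divide along the course of mitosis. *Kif11* (Eg5) and *Kif15* push the spindle poles apart and keep the spindle bipolar. *Kif4* and *Kif22* are chromokinesins, which bind chromosomes and move their arms. *Kif2c* (MCAK) and *Kif18a* act at microtubule ends, where they shorten microtubules or damp chromosome movement. *Kif23* (MKLP1), *Kif20a* (MKLP2), *Kif20b* (MPP1) and *Kif14* work at the spindle midzone and the midbody during cytokinesis. In many cell types these genes are transcribed mainly in the G2 and M phases, so that their mRNA is known as a mark of dividing cells, and cultured astrocytes of embryonic origin still divide.

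The study asked how astrocytes respond to ionizing radiation. Primary astrocytes were isolated from the brain cortex of C57BL/6J wild type mouse embryos and exposed to X-rays at 0 Gy (mock-irradiated), 0.1 Gy or 2 Gy. RNA was harvested 6 h or 24 h later, which gave 6 groups of 4 libraries that carry the replicate numbers 1 to 4. The study's methods pooled the embryos of a pregnant mouse, so a culture is a mixture of animals, and the cells were passaged before seeding. Levels are given as CPM, a count relative to the size of its library, which was scaled by TMM normalization so that libraries of different composition can be compared. Total counts per library ranged from 14742855 to 38194800, and the counts of the 10 kinesin genes from 42 to 1266 per library.

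Astrocyte markers were present throughout, with 12 of 12 markers above 1 CPM in every library and a summed level from 2591 to 3692 CPM. Microglia markers were not absent either. Their summed level was 253 to 309 CPM in the 6 libraries of replicate 2 and 1688 to 3035 CPM in the 18 other libraries, so that replicate 2 stood apart at every dose and time. Neuron markers summed to 195 to 344 CPM, most of it from *Stmn2*, while *Rbfox3* and *Snap25* did not exceed 1.26 CPM. Oligodendrocyte lineage markers summed to 411 to 899 CPM. *Olig1* was at 151 to 538 CPM, *Olig2* at 59.3 to 192 CPM and *Cnp* at 57.3 to 193 CPM, while *Sox10* and *Mog* were at no more than 2.81 CPM. Fibroblast and vessel markers summed to 3531 to 7853 CPM, mostly from *Acta2*. *Col1a1* was at 118 to 880 CPM, *Col1a2* at 99.5 to 485 CPM and *Pdgfrb* at 45.5 to 78.5 CPM, while *Cldn5* did not exceed 0.07 CPM.

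Each comparison was tested in edgeR with a quasi-likelihood test over all genes that passed its filter on low counts, and a gene is said to be called at a Benjamini-Hochberg adjusted p under 0.05. The unpaired fit compares 4 libraries with 4. Libraries of a time point that share a replicate number deviated together from their group means, so the numbers were taken as pairs, and a second fit takes the number into account as a block (the replicate block). In bulk RNA, fewer dividing cells and less kinesin mRNA per dividing cell cannot be told apart.

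By the coordinates in the files (GRCm38), *Kif11* lies at chr19:37376403-37421859 and *Kif20b* at chr19:34922358-34975731, both on the plus strand. *Kif15* lies at chr9:122951046-123018733 on the plus strand and *Kif23* at chr9:61915905-61946774 on the minus strand. *Kif4* lies at chrX:100625737-100727214, *Kif18a* at chr2:109280738-109341747 and *Kif14* at chr1:136466343-136531511, all on the plus strand, and *Kif22* at chr7:127027729-127042471 and *Kif2c* at chr4:117159639-117182639 on the minus strand. Exons of *Kif20a* share 1259 bp (33.2% of its exon length) with *Cdc23* on the opposite strand, those of *Kif4* share 832 bp (15.1%) with *Pdzd11*, those of *Kif22* share 96 bp (1.96%) with the antisense gene *Gm31749*, and those of *Kif18a* share 11 bp with *Mettl15*. Whether the counting used strand is not given in the sources used here, so the counts of *Kif20a* and *Kif4* are less certain than the others. The processed pseudogenes *Kif22-ps* and *Kif4-ps* held 0 and 2 counts over the 24 libraries.

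Promoter sequence is shown because all 10 genes were lower 24 h after 2 Gy, as described further on. Many genes of the G2 and M phases carry a short promoter word, TTTGAA, near their start, which is known as the cell cycle genes homology region and is bound by the repressive DREAM complex and by the activating complex of B-MYB and FOXM1. RefSeq promoters of GRCm38.p6 (250 bases before to 50 bases after the start) matched 9 of the 10 genes, and there was no entry for *Kif20a*. TTTGAA, read on either strand, occurred in 8 of the 9 promoters (88.9%) and in 5878 of all 32851 promoters (17.9%). Within 25 bases of the start, a window chosen after the positions were seen, it occurred in 6 of 9 (66.7%) and in 807 of 32851 (2.46%), in 2 of 4 promoters of the other mitotic kinesins and in 5 of 18 (27.8%) of their spindle partners, described below. The capitals below mark the word, on the gene's own strand and from 5′ to 3′, where TTCAAA is TTTGAA read from the other strand.
Kif11: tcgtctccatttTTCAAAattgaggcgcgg
Kif15: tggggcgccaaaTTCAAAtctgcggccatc
Kif20b: ccgccattgTTTGAATTTGAAaaccgggag
Kif22: gggccccggtaaTTCAAAagagagaagcgg
Kif23: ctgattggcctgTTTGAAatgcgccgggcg
Kif4: ctctgggatcaaTTTGAAacttggcggtta
These windows lie at chr19:37376351-37376380 for *Kif11*, chr9:122951050-122951079 for *Kif15*, chr19:34922356-34922385 for *Kif20b* and chrX:100626072-100626101 for *Kif4* on the plus strand. They lie at chr7:127042420-127042449 for *Kif22* and chr9:61946780-61946809 for *Kif23* on the minus strand. The word began 19 bases before the start in *Kif11* and in *Kif15*, and 17 bases before it in *Kif22*. It began at base 3 of the transcript in *Kif23* and at base 20 in *Kif4*, and in *Kif20b* it stood 2 times in a row from base 8 to base 19. In *Kif14* and *Kif2c* it stood farther away, at -228 and -103, and *Kif18a* had none in this window. *Kif15* and *Kif22* held the word a second time, at -234 and -215. Positions count from the RefSeq start, which can differ from the gene start in the files. The related word TTCGAA occurred in 0 of the 9 promoters and in 1.56% of all. The word CCAAT, read on either strand and bound by NF-Y, occurred in 5 of 9 (55.6%) and in 37.4% of all. The word occurred anywhere in 3 of the 4 promoters of other mitotic kinesins. Among 29 promoters (25 genes) of other kinesins and kinesin light chains, a list that also holds *Kif2a* and *Kif2b*, which are known to act on spindles, TTTGAA occurred in 3 (10.3%), and among 18 promoters (15 genes) of spindle partners, proteins that work with these motors, in 14 (77.8%). Among 14 promoters (13 genes) of G1/S and S phase genes it occurred in 2 (14.3%), and most genes of that list were lower at 24 h after 2 Gy as well. These are matches of letters and were not tested as binding sites.

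The levels of the 10 genes were compared per kilobase of the gene length in the files, which counts the exons of every listed transcript and therefore understates genes with long rarely used exons. In mock-irradiated cells at 24 h, *Kif20a* was highest at 7.45 ± 0.726 CPM per kb (SD, n = 4), followed by *Kif11* at 6.96 ± 1.69 CPM per kb, and the difference between them was smaller than the SD of *Kif11*. *Kif4*, *Kif20b*, *Kif23*, *Kif22* and *Kif2c* followed at means between 4.03 and 3.06 CPM per kb, and neighbours in this order did not differ by more than their SD. A step larger than the SD separated them from *Kif15* at 1.43 ± 0.447 and *Kif18a* at 1.37 ± 0.346 CPM per kb, which did not differ from each other beyond it. *Kif14* was lowest at 0.601 ± 0.0423 CPM per kb. *Kif20a* and *Kif14* were first and last in mean level in all 6 groups. After 2 Gy at 24 h, *Kif20a* stood at 4.20 ± 0.287 CPM per kb and every library of it was above every library of *Kif11*, at 2.79 ± 1.07 CPM per kb.

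All 10 mitotic kinesins were lower 24 h after 2 Gy X-rays than in mock-irradiated cells, in each of the 4 pairs, and for each gene the 4 irradiated libraries lay below the 4 mock-irradiated libraries. Of all genes tested, 2.01% were below in every library in this way and 21.9% were lower in 4 of 4 pairs. The median log2 fold change of the 10 genes was -1.04 (range -1.35 to -0.74), beside 0.012 over the 15892 genes tested. The unpaired fit called 0 of the 10, at adjusted p from 0.202 to 0.94, and 0% of all genes. At an unadjusted p under 0.05 there were 10 of 10, beside 2.17% of all genes on the lower side. With the replicate block 10 of 10 were downregulated, at adjusted p from 0.00186 to 0.0106, beside 6.69% of all genes on the lower side. DESeq2's Wald test called 9 of 10 without the block, the exception being *Kif18a*, beside 0.711% of all genes on the lower side, and 10 of 10 with the block, beside 9.2%. Over the alternatives that kept every library, the adjusted p of the 10 genes ranged from 6.17e-14 to 0.945.

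**Figure D1:**
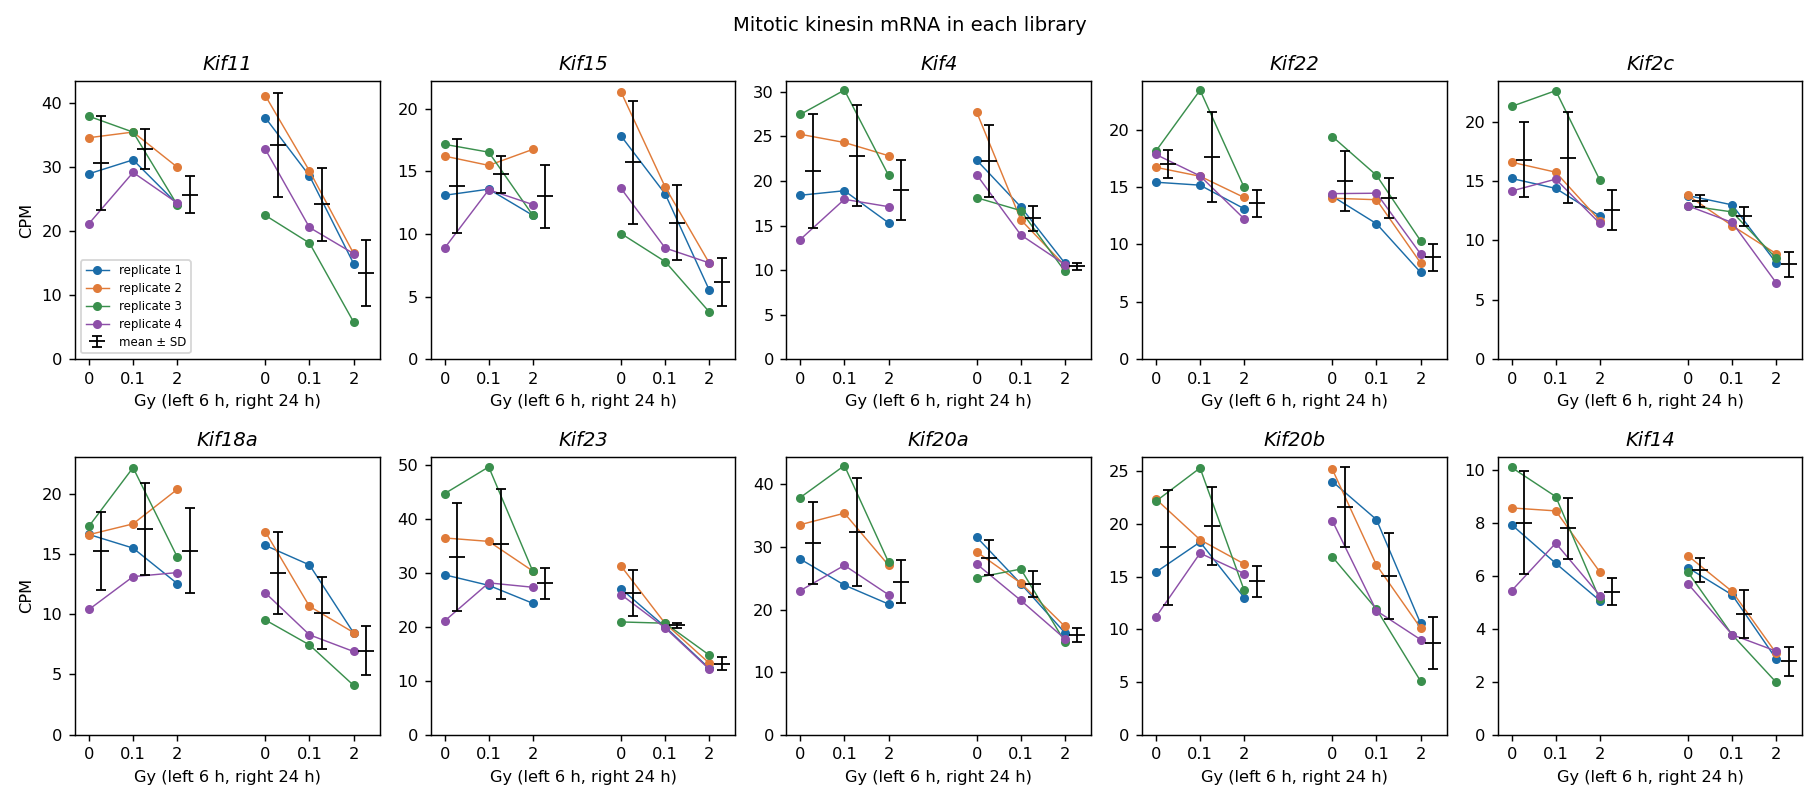
CPM of each mitotic kinesin (1 panel per gene, vertical axis from 0) at 0, 0.1 and 2 Gy, 6 h after exposure on the left and 24 h on the right of each panel. Colored points are the 4 libraries of a group, joined by replicate number within a time, and black bars give mean ± SD (n = 4). At 24 h every 2 Gy library lies below every 0 Gy library in all 10 panels, while the groups overlap in most panels at 6 h.

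*Kif11* and *Kif15*, the motors of spindle bipolarity, had the largest fold changes of the 10 together with *Kif20b* in the unpaired fit. With the GC and length correction described below, these 3 stood at -1.14, -1.02 and -1.01, close to -0.99 for *Kif4*. In replicates 1 to 4 at 24 h, *Kif11* was at 37.7, 41.1, 22.5 and 32.8 CPM in mock-irradiated cells, at 28.6, 29.4, 18.1 and 20.6 CPM after 0.1 Gy and at 14.9, 16.5, 5.80 and 16.5 CPM after 2 Gy. Replicate 3 was the lowest of the 4 at each dose, and within each number the level was lower at each higher dose. The log2 fold change of *Kif11* at 2 Gy was -1.31 ± 0.34 (SE), or 2.49-fold lower. *Kif15* was at 17.8, 21.3, 10.03 and 13.6 CPM at 0 Gy, at 13.2, 13.8, 7.79 and 8.88 CPM at 0.1 Gy and at 5.52, 7.67, 3.77 and 7.69 CPM at 2 Gy. The same replicate was again the lowest at each dose, and the log2 fold change at 2 Gy was -1.35 ± 0.32 (SE), or 2.54-fold lower. The adjusted p of the pair was 0.414 to 0.563 in the unpaired fit and 0.00249 to 0.00284 with the block, and it ranged from 6.17e-14 to 0.679 over the alternatives.

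*Kif4* and *Kif22*, which bind chromosome arms, differed in how their libraries were ordered. *Kif4*, needed for chromosome condensation and for the length of the midzone, was at 22.3, 27.7, 18.1 and 20.7 CPM in mock-irradiated cells, at 17.1, 15.6, 16.7 and 13.9 CPM after 0.1 Gy and at 10.8, 10.5, 9.85 and 10.6 CPM after 2 Gy. The 4 libraries at 2 Gy lay within about 1 CPM of each other, below all libraries of both other groups, and the log2 fold change was -1.09 ± 0.18 (SE). *Kif22*, which pushes chromosomes toward the spindle equator, was at 14.2, 14.03, 19.4 and 14.4 CPM at 0 Gy, at 11.8, 13.9, 16.02 and 14.5 CPM at 0.1 Gy and at 7.56, 8.39, 10.3 and 9.17 CPM at 2 Gy. Here replicate 3 was the highest at each dose, the reverse of its place for *Kif11* and *Kif15*, and the log2 fold change was -0.80 ± 0.19 (SE), or 1.75-fold lower. The adjusted p of the pair was 0.202 to 0.414 in the unpaired fit, 0.00277 to 0.00587 with the block, and over the alternatives it ranged from 1.25e-09 to 0.83.

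*Kif2c* and *Kif18a*, which act at microtubule ends, were among the members with smaller changes. *Kif2c*, a motor that takes microtubules apart at centromeres, was at 13.8, 13.8, 12.9 and 12.9 CPM at 0 Gy, at 12.997, 11.2, 12.4 and 11.5 CPM at 0.1 Gy and at 8.11, 8.88, 8.48 and 6.42 CPM at 2 Gy. Its log2 fold change of -0.74 ± 0.18 (SE) was the smallest of the 10 in the unpaired fit. The 2 Gy libraries of *Kif2c* lay below those of both other groups. With the GC and length correction described below, the change of *Kif18a* was the smallest at -0.54. *Kif18a*, which limits the swinging of aligned chromosomes, was at 15.7, 16.8, 9.52 and 11.8 CPM at 0 Gy, at 14.1, 10.6, 7.45 and 8.29 CPM at 0.1 Gy and at 8.45, 8.48, 4.10 and 6.91 CPM at 2 Gy. Its lowest mock-irradiated library and its highest irradiated library were closer than for any gene described above, and the log2 fold change was -0.94 ± 0.30 (SE). The adjusted p of the pair was 0.45 to 0.94 in the unpaired fit, 0.00413 to 0.0106 with the block, and over the alternatives it ranged from 2.66e-06 to 0.945.

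The 4 motors of the midzone and of cytokinesis spanned nearly the whole range of fold changes. *Kif23*, the motor of the centralspindlin complex, was at 27.1, 31.3, 20.9 and 26.03 CPM at 0 Gy, at 20.04, 20.7, 20.7 and 19.8 CPM at 0.1 Gy and at 12.3, 13.3, 14.8 and 12.2 CPM at 2 Gy. The 3 groups of *Kif23* did not overlap, and its log2 fold change at 2 Gy was -1.0005 ± 0.18 (SE), or 2.00-fold lower. *Kif20a*, a gene of chromosome 18 whose motor carries the chromosomal passenger complex to the midzone, was at 31.6, 29.2, 25.1 and 27.3 CPM at 0 Gy, at 24.1, 24.2, 26.5 and 21.5 CPM at 0.1 Gy and at 16.3, 17.3, 14.8 and 15.3 CPM at 2 Gy. Its libraries at 0 and 0.1 Gy overlapped and those at 2 Gy stood below both, with a log2 fold change of -0.82 ± 0.16 (SE). *Kif20b*, a motor needed for the last step of cytokinesis, was at 24.01, 25.2, 16.9 and 20.3 CPM at 0 Gy, at 20.4, 16.1, 11.9 and 11.8 CPM at 0.1 Gy and at 10.6, 10.1, 5.09 and 9.02 CPM at 2 Gy. Its log2 fold change of -1.31 ± 0.27 (SE) lay beside those of *Kif11* and *Kif15*, and replicate 3 was the lowest library at 0 and 2 Gy. *Kif14*, which recruits citron kinase to the midbody, was at 6.30, 6.76, 6.14 and 5.70 CPM at 0 Gy, at 5.28, 5.41, 3.78 and 3.78 CPM at 0.1 Gy and at 2.86, 3.08, 1.98 and 3.16 CPM at 2 Gy. The 3 groups of *Kif14* did not overlap either, and the log2 fold change was -1.16 ± 0.23 (SE), or 2.24-fold lower. The adjusted p of the 4 genes was 0.205 to 0.274 in the unpaired fit, 0.00186 to 0.00789 with the block, and over the alternatives it ranged from 1.31e-13 to 0.609.

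*Cdc23* and *Pdzd11*, which overlap *Kif20a* and *Kif4* on the opposite strand, had log2 fold changes of -0.16 ± 0.21 and -0.042 ± 0.17 (SE) at 2 Gy and 24 h, at adjusted p of 0.252 and 0.777 with the block. *Kif20a* and *Kif4* were lower by more than these neighbours, though the difference between the genes was not tested. The number of blocked calls at 24 h changed with the replicate number left out, and so did the share of all genes called. Without replicate 2, the number with few microglia transcripts, 5 of the 10 kinesins were called (*Kif11*, *Kif15*, *Kif20a*, *Kif20b* and *Kif4*), the adjusted p of the 10 ran from 0.0343 to 0.0734, and their median log2 fold change was -0.96, beside 0.376% of all genes on the lower side. Without replicate 1 or replicate 4 there were 9, *Kif2c* being the exception both times, beside 0.68% and 0.875% of all genes. Without replicate 3 there were 10, in a fit that called 16.4% of all genes on the lower side. Of the marker lists, the unpaired fit called 0 genes at 2 Gy and 24 h. The block called 2 of 12 astrocyte markers higher, 2 of 12 microglia markers higher and 1 lower, 1 of 6 neuron markers and 1 of 9 oligodendrocyte lineage markers higher, and 0 of 9 fibroblast and vessel markers, beside 6.53% of all genes on the higher side, with list medians of log2 fold change from -0.063 to 0.21. The mitochondrial share of the counts, in replicates 1 to 4, was 2.17, 4.97, 1.90 and 3.65% at 0 Gy and 0.947, 2.09, 1.91 and 2.18% at 2 Gy, lower in 3 of 4 pairs. The part of other cell types and of the mitochondrial share in the kinesin result was not tested.

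GC content was taken from the longest annotated transcript of each gene. It was correlated with log2 fold change over all genes at 24 h (r = 0.559 at 2 Gy and 0.587 at 0.1 Gy). These r are taken across genes, which are not independent replicates. The 10 kinesins range from 38.2% GC in *Kif18a* to 50.3% in *Kif2c*, and their own fold changes at 2 Gy were ordered with GC content as well (r = 0.643 in the blocked fit, over 10 genes that share their libraries). When the blocked fit was corrected for GC and length of the genes, r over the 10 was 0.0864, the median log2 fold change was -0.89 and 10 of 10 were called, beside 1.69% of all genes on the lower side. *Kif18a* moved most, from -0.96 ± 0.12 to -0.54 ± 0.098 (SE), whereas *Kif2c* stood at -0.75 ± 0.12 before and -0.75 ± 0.11 after. The part of GC content in the result was not tested beyond this correction.

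**Figure D2:**
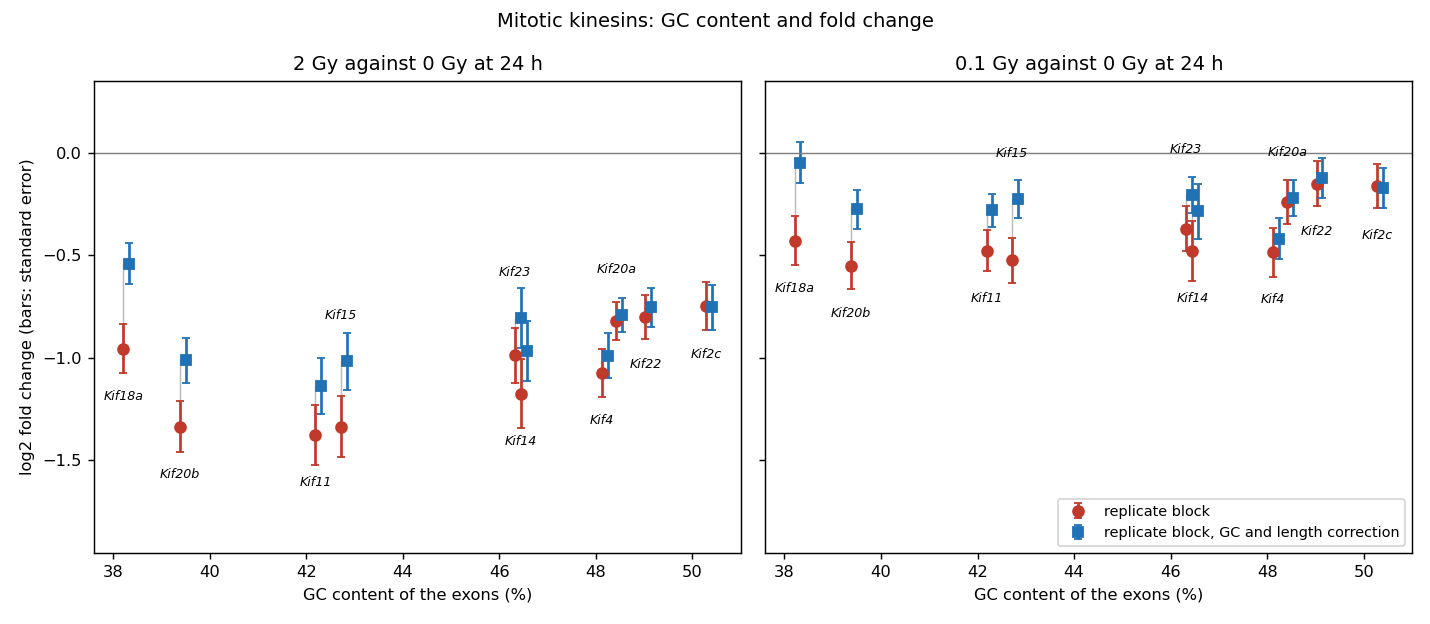
Log2 fold change (vertical axis, bars give SE) against GC content (horizontal axis, percent) for the 10 mitotic kinesins at 24 h. GC content is that of the longest annotated transcript of a gene. The left panel gives 2 Gy and the right panel 0.1 Gy, each against 0 Gy. Circles are the fit with the replicate block and squares the same fit corrected for GC and gene length. At 2 Gy all squares stay between -1.14 and -0.54, and at 0.1 Gy the AT-rich members move toward 0.

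After 0.1 Gy at 24 h, all 10 kinesins had a negative log2 fold change, with a median of -0.44 beside -0.0067 over all genes. The 0.1 Gy and the 2 Gy groups share their mock-irradiated controls, so the values of both doses stand side by side and are not independent. The largest were -0.53 ± 0.29 (SE) for *Kif15*, -0.53 ± 0.22 for *Kif20b* and -0.50 ± 0.16 for *Kif4*, and the smallest -0.15 ± 0.17 for *Kif22* and -0.16 ± 0.13 for *Kif2c*. *Kif14*, *Kif23* and *Kif4* had 4 libraries below all 4 controls, 3 of 10 genes beside 0.544% of all genes. There were 8 genes lower in 4 of 4 pairs, beside 16.2% of all genes, the exceptions being *Kif20a* and *Kif22* with 3 of 4. The unpaired fit called 0 of 10 and 0% of 16183 genes. At an unadjusted p under 0.05 it held 3 of 10, beside 0.877% on the lower side. DESeq2 without the block called 0 of 10, beside 0 of 30033 genes. With the replicate block *Kif11*, *Kif15*, *Kif18a*, *Kif20b* and *Kif4* were downregulated, at adjusted p from 0.0262 to 0.0463, which is 5 of 10 beside 4.5% of all genes on the lower side. The block in DESeq2 called 6, beside 8.38%.

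These calls at 0.1 Gy depended on the processing. With the GC and length correction the median was -0.22 and 1 of 10 was called, *Kif4* at an adjusted p of 0.0412 (from 0.0104 to 0.993 over the alternatives), beside 0.531% of all genes on the lower side. Without replicate 2 or without replicate 4 the blocked fit called 0 of 10, beside 0.118% and 0.0925% of all genes on the lower side. Without replicate 1 it called 5, beside 4.3%, and without replicate 3 it called 7, beside 11.8%.

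Between the doses at 24 h, the 10 kinesins were lower after 2 Gy than after 0.1 Gy in 4 of 4 pairs, with a median log2 fold change of -0.63 (range -0.83 for *Kif11* to -0.52 for *Kif18a*). Of all genes, 7.56% were lower in 4 of 4 pairs. For 9 of 10 the groups did not overlap, beside 1.06% of all genes, and *Kif18a* was the exception. The unpaired and the blocked fit called 0 of 10 and 0% and 0% of all genes, and the unpaired fit held 9 of 10 at an unadjusted p under 0.05, beside 1.14% on the lower side. In the blocked fit the adjusted p of the 10 ran from 0.081 to 0.429. DESeq2 called *Kif23*, *Kif20a* and *Kif4* without the block, 3 of 10 beside 0.213% of all genes on the lower side, and 7 of 10 with it, beside 0.649%. The blocked fit with the GC and length correction called 6, beside 0.612%. Over the alternatives the adjusted p ranged from 0.000549 to 1.

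**Figure D3:**
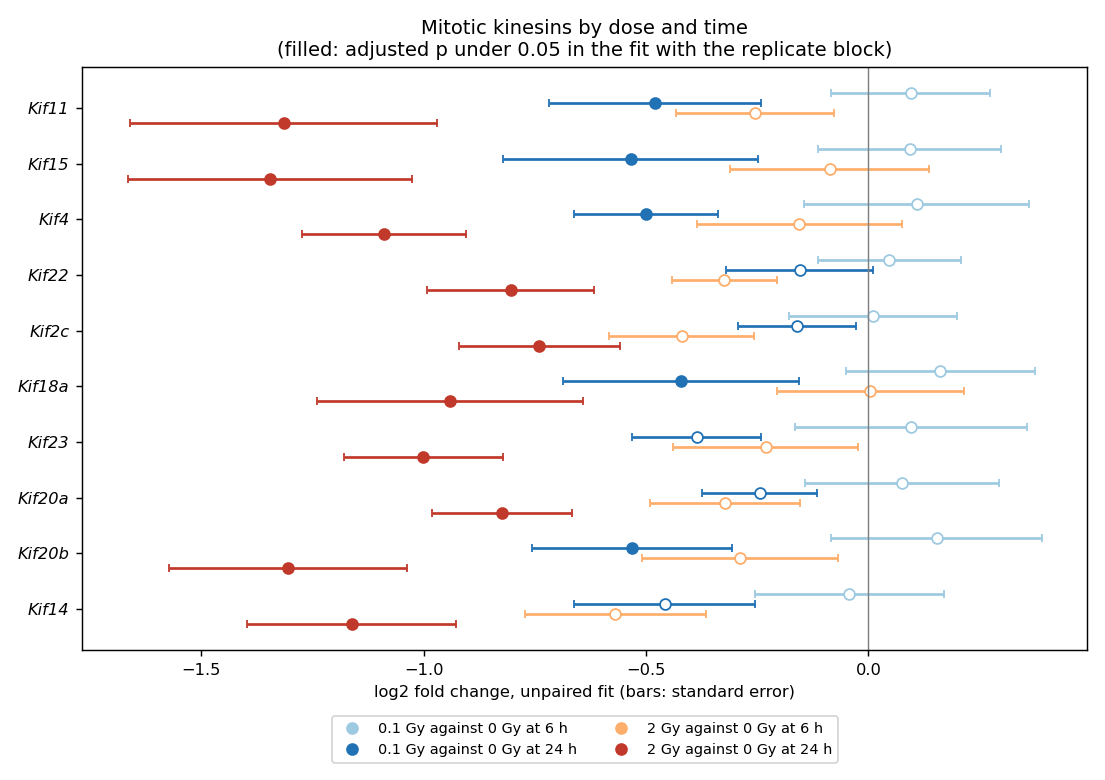
Log2 fold change in the unpaired fit (horizontal axis, bars give SE, n = 4 against 4) of each mitotic kinesin for each dose against its mock-irradiated group, at 6 h and 24 h. Filled points had an adjusted p under 0.05 in the fit with the replicate block. The red points (2 Gy, 24 h) run from -1.35 to -0.74 and are filled for all 10 genes, and 5 dark blue points (0.1 Gy, 24 h) are filled.

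At 6 h after 2 Gy, the log2 fold changes lay nearer to 0 and no fit with all libraries and without a GC correction called a kinesin gene. The median log2 fold change was -0.27, beside -0.0016 over all genes. The unpaired fit called 0% of 15994 genes and the blocked fit 0% on the lower side, with the members' adjusted p from 0.313 to 1 under the block. At an unadjusted p under 0.05 the unpaired fit held 3 of 10, beside 0.725% of all genes on the lower side. DESeq2 called 0 members with and without the block, beside 9 of 13756 and 1 of 30045 genes on the lower side. *Kif14* had the most negative value at -0.57 ± 0.20 (SE), from 7.93, 8.57, 10.1 and 5.44 CPM in mock-irradiated cells to 5.07, 6.15, 5.11 and 5.26 CPM after 2 Gy. *Kif2c* went from 15.2, 16.6, 21.3 and 14.2 to 12.1, 11.7, 15.1 and 11.4 CPM, a log2 fold change of -0.42 ± 0.16 (SE). The groups of both genes overlapped. *Kif22* went from 15.4, 16.7, 18.1 and 17.8 to 13.1, 14.1, 14.96 and 12.2 CPM and was the 1 gene of 10 whose groups did not overlap, beside 0.707% of all genes. There were 4 genes lower in 4 of 4 pairs (*Kif14*, *Kif20a*, *Kif22* and *Kif2c*), beside 8.55% of all genes. *Kif18a* stood at the other end, with 16.6, 16.6, 17.3 and 10.4 CPM at 0 Gy, 12.5, 20.3, 14.8 and 13.4 CPM at 2 Gy and a log2 fold change of 0.0045 ± 0.21 (SE), the sign of which changed with the scaling. The blocked fit with the GC and length correction called *Kif14* and *Kif2c* at adjusted p of 0.0413 and 0.0478, 2 of 10 beside 0.138% of all genes on the lower side. Without replicate 4 the blocked fit called *Kif14*, *Kif20a*, *Kif20b* and *Kif2c*, 4 of 10 beside 0.217% of all genes on the lower side, and without replicate 1, 2 or 3 it called 0 of 10. Over the alternatives that kept every library, the members' adjusted p ranged from 0.0413 to 1.

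At 6 h after 0.1 Gy, no difference between the kinesins' groups passed a test. The median log2 fold change was 0.094 (range -0.043 for *Kif14* to 0.16 for *Kif18a*), with 9 of 10 above 0. Neither the unpaired nor the blocked fit called a member, and they called 0% and, on the lower side, 0% of 16020 genes. At an unadjusted p under 0.05 there were 0 of 10 in either fit, beside 0.0936% of all genes on the lower side in the unpaired fit and 2.29% with the block. DESeq2 called 0 members with and without the block, beside 0 of 30183 and 0 of 30149 genes. *Kif23* was at 29.7, 36.5, 44.8 and 21.1 CPM at 0 Gy and at 27.7, 35.9, 49.7 and 28.2 CPM at 0.1 Gy. Replicate 3 was the highest library of *Kif23* in both groups, and the groups overlapped.

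The difference between the responses to 2 Gy at 24 h and at 6 h was tested as an interaction. Its median over the 10 kinesins was -0.84 on the log2 scale, beside 0.012 over all 16866 genes tested, and all 10 values were negative. The unpaired fit called 0 of 10 and 0% of all genes, with 8 of 10 at an unadjusted p under 0.05 beside 2.57% on the lower side. With the replicate block 7 of 10 were called, beside 3.23% of all genes on the lower side. The values of these 7 ran from -1.25 ± 0.23 (SE) for *Kif15* to -0.50 ± 0.13 for *Kif20a*, at adjusted p from 0.0335 to 0.0436. *Kif14*, *Kif22* and *Kif2c* were not called, at 0.102, 0.0573 and 0.152. The block in DESeq2 called 8, beside 10.6%, and the GC and length correction left 4 (*Kif11*, *Kif15*, *Kif20a* and *Kif4*), beside 0.955%. With that correction the median was -0.50, against -0.86 in the blocked fit without it, and *Kif18a* stood at -0.40 ± 0.14 (SE). Over the alternatives the adjusted p ranged from 8.72e-05 to 0.997, and without replicate 1 or replicate 2 the blocked fit called 0 of 10 and 0% and 0% of all genes on the lower side. Without replicate 3 it called 7, beside 11.3%, and without replicate 4 it called 2, beside 0.407%.

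Between the times in mock-irradiated cells, the unpaired edgeR fit called no kinesin. The comparison of 24 h with 6 h had a median log2 fold change of -0.14 (range -0.38 for *Kif14* to 0.27 for *Kif20b*), with 6 of 10 below 0. It called 0 of the 10, although 6.7% of 15887 genes were called, at adjusted p of the members from 0.236 to 0.909 and with 0 of 10 at an unadjusted p under 0.05, beside 11.9% of all genes on the lower side, and DESeq2 called 0 as well, beside 5.46% of all genes on the lower side. With the GC and length correction the blocked fit called *Kif14*, *Kif18a* and *Kif23* lower, 3 of 10 beside 12.7% of all genes on the lower side. Over the alternatives the adjusted p ranged from 0.00768 to 0.915. The summed level of the 10 genes was 204 ± 46.8 CPM at 6 h and 196 ± 28.8 CPM at 24 h without irradiation (SD, n = 4). It was 217 ± 43.8 and 151 ± 15.7 CPM after 0.1 Gy and 172 ± 19.1 and 94.4 ± 10.8 CPM after 2 Gy, at 6 h and 24 h.

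Related genes of cell division were read in the same comparison, 24 h after 2 Gy against mock-irradiated cells. Of the other mitotic kinesins, *Cenpe*, the kinetochore motor, went from 43.6 ± 10.5 to 19.1 ± 5.14 CPM (SD, n = 4), and *Kif18b*, which shortens astral microtubules, from 16.2 ± 3.14 to 9.68 ± 2.11 CPM. Both were downregulated in the blocked fit, with log2 fold changes in the unpaired fit of -1.19 ± 0.27 and -0.74 ± 0.23 (SE) and blocked adjusted p of 0.00186 and 0.00973. *Kifc1*, a minus-end motor that gathers spindle poles, stood at 21.1 ± 2.5 CPM after 2 Gy and 21.1 ± 7.17 CPM at 0 Gy, a log2 fold change of 0.0076 ± 0.23 (SE). Its close copy *Kifc5b* stood at 5.76 ± 1.61 and 5.69 ± 1.58 CPM. Reads of *Kifc1* and *Kifc5b* may be split between the copies, so both values are uncertain.

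All 18 spindle partners on the list were downregulated with the block, 18 of 18 beside the 6.69% of all genes. Their median log2 fold change was -0.96 in the unpaired fit, which called 0 of them. The list was chosen with earlier results of these data known, so this share is not independent of them. Some of its genes, such as *Bub1* and *Nusap1*, are among those the study reported as downregulated. Partners of single members were among the 18. *Racgap1*, which forms centralspindlin with *Kif23*, went from 48.6 ± 2.49 to 28.4 ± 1.93 CPM, and *Tpx2*, which regulates *Kif11* on the spindle, from 64.6 ± 5.63 to 33.0 ± 1.3 CPM. *Prc1*, the midzone crosslinker that binds *Kif4*, went from 61.7 ± 6.53 to 36.4 ± 4.39 CPM, and *Cit*, the citron kinase that *Kif14* recruits, from 18.2 ± 0.665 to 11.1 ± 1.29 CPM. Log2 fold changes of the 18 ran from -1.37 for *Bub1*, a checkpoint kinase, to -0.57 for *Incenp*, the scaffold of the passenger complex. Of the 16 G1/S and S phase genes, 15 were lower and called with the block, with a median of -0.72. Among them were *Ccne2*, a cyclin of the G1/S transition, at -1.58, *Cdc6*, a licensing factor of replication, at -1.35, and the helicase subunits *Mcm4* and *Mcm6* at -0.81 and -0.69.

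Tubulins, the subunits of microtubules, and the other kinesins, many of which carry cargo between divisions, were read against the 6.69% of all genes called lower and the 6.53% called higher with the block. The 16 tubulins had a median log2 fold change of 0.036, and the block called 1 lower and 2 higher. *Tubb5* and *Tubb4b*, the most abundant among those with the smallest p, were called by the block in opposite directions, at -0.38 and 0.31, and *Tube1* and *Tuba4a*, at -0.55 and -0.22, were not called. Of 33 other kinesins and kinesin light chains 31 passed the filter, with a median of 0.10, and the block called 2 lower and 2 higher. *Kif2a*, a relative of *Kif2c* that also takes microtubules apart, on spindles too, was among the lower at -0.50, and *Kif7*, a ciliary kinesin of Hedgehog signalling, among the higher at 0.52. *Kif17* and *Klc3*, at 0.70 and 0.51, were not called. With the GC and length correction the block called 0 of the 31 other kinesins, 2 tubulins lower, 18 of 18 spindle partners and 14 of 16 S phase genes, beside 1.69% of all genes on the lower side.

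**Figure D4:**
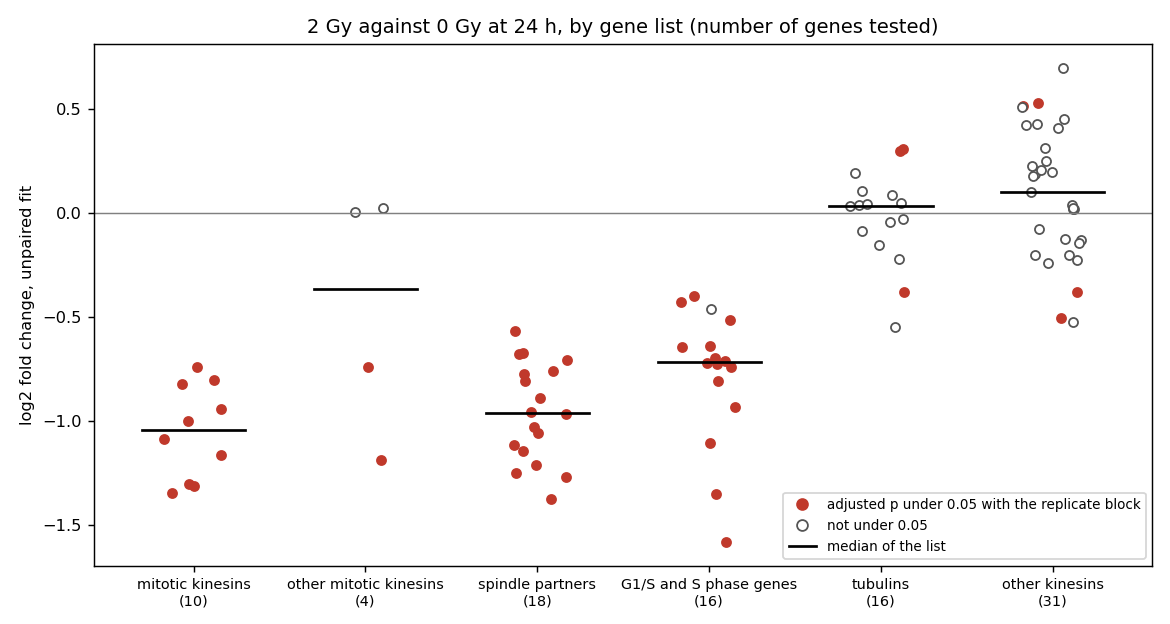
Log2 fold change in the unpaired fit (vertical axis) 24 h after 2 Gy against mock-irradiated cells, by gene list (horizontal axis, number of genes tested in parentheses). Each point is a gene, red where the adjusted p was under 0.05 with the replicate block, and black lines are list medians. The lists were chosen with earlier results of these data known. The mitotic kinesins and the spindle partners lie below -0.5 throughout, with medians of -1.04 and -0.96, while tubulins and other kinesins lie around 0.

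In the other comparisons the spindle partners had these counts. At 24 h after 0.1 Gy the block called 8 of 18 lower, with a median log2 fold change of -0.28 in the unpaired fit, and at 6 h it called 0 of 18 at either dose, with medians of -0.26 after 2 Gy and 0.036 after 0.1 Gy. The shares of all genes called on the lower side were 4.5% at 0.1 Gy and 24 h and 0% and 0% at 6 h. In the interaction the block called 13 of 18, beside 3.23% of all genes. With the GC and length correction it called 2 of 18 after 0.1 Gy at 24 h, beside 0.531%, and 12 of 18 in the interaction, beside 0.955%. *Cenpe* and *Kif18b* had log2 fold changes of -0.64 and -0.20 after 0.1 Gy at 24 h and of -0.19 and -0.16 after 2 Gy at 6 h.

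The 10 kinesins varied together over the 24 libraries. Pearson's r between log2 CPM of 2 members had a median of 0.866 over the 45 pairs of genes, from 0.555 for *Kif18a* and *Kif22* to 0.967 for *Kif11* and *Kif15*. After subtraction of the group means the median was 0.617, and the lowest value was -0.441, between *Kif11* and *Kif22*. *Kif22* was the member least like the others, at r = 0.749 with the mean z score of the other 9 over all libraries and -0.051 within groups, and *Kif14* the most alike at 0.958. Of the 17353 genes that passed the filter over all 24 libraries, those outside the list that were most like the mean of the 10 were *Cep55*, *Ccna2*, *Top2a*, *Tpx2*, *Ckap2l*, *Prr11*, *Sgo1*, *Nusap1*, *Cdca2* and *Spdl1*, at r from 0.979 to 0.953. Of these, *Cep55*, *Tpx2*, *Ckap2l* and *Nusap1* are on the list of spindle partners, and 49 genes in all exceeded 0.9. Within groups, r of the 10 genes ran from 0.798 for *Prr11* to 0.942 for *Cep55*. These values are a description over 24 libraries that share dose, time, depth and replicate number.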

How the data were processed

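Messenger RNA of 24 cultures was enriched by poly(A) selection and sequenced as paired reads in the same run, and a sequencing company trimmed and mapped the reads. The values are raw counts of reads per gene, which the authors deposited as 1 table per library without normalization or pooling; the submitters' processing notes name the build mm10, and the aligner, counting tool and strand setting are not given in the sources used here. Of 49315 genes, 44823 had the same coordinates in GENCODE M21 (GRCm38). Groups and replicate numbers came from the sample labels. The members and gene lists were chosen with earlier results of these data known.

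Tests used edgeR 4.0.16 in R 4.3.3 (TMM, filterByExpr, quasi-likelihood test, Benjamini-Hochberg over all genes tested), on the libraries of the groups compared. CPM of single libraries used TMM over the 24 libraries, and log2 CPM a prior count of 2. Same-numbered libraries deviated together from their group means in the dose comparisons (r from 0.514 to 0.907 across genes), so numbers were taken as pairs within a time; the labels do not say what a number shares. In the comparison of times r was 0.378, 0.80, 0.0887 and 0.493 for replicates 1 to 4. Replicate 3 was more alike to another number (r = 0.527), and the numbers were not taken as pairs. No 2 libraries of a group agreed within sampling noise (lowest chi-square per degree of freedom 25.9). P-values of the unpaired fits measure the spread between these cultures. Those of the blocked fits measure how the difference between groups varied from one replicate number to another.

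Named genes were all 10 members, the other mitotic kinesins and spindle partners, up to 4 each of other kinesins, tubulins and S phase genes with the smallest p at 2 Gy and 24 h, the 10 genes most alike in pattern, defining markers and overlapping genes. Alternatives were DESeq2 1.42.0, its size factors in edgeR, library size alone, no filter, the replicate block (also in DESeq2 and with splines of GC content and gene length), all 24 libraries in 1 fit, a minimum log2 fold change of 1, and each library or number left out. The block with library size alone was chosen after seeing the data. Scripts were tested on simulated data.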

Additional observations from a re-analysis of the deposited data

Results flagged for a closer look

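Of 60 groups of 4 libraries (10 genes in 6 groups), 9 held a library far from the other 3 by Dixon's test, which chance does in about 1 in 20 groups, and groups of different genes share libraries. After 2 Gy at 24 h this was *Kif11* in replicate 3, at 5.8 CPM, the lowest of its group. After 2 Gy at 6 h, the highest libraries were *Kif11* at 30.01 CPM and *Kif15* at 16.8 CPM in replicate 2, and *Kif2c* at 15.1 CPM in replicate 3. After 0.1 Gy at 6 h, replicate 3 was highest for *Kif20b* at 25.3 CPM, for *Kif22* at 23.4 CPM and for *Kif2c* at 22.6 CPM. In mock-irradiated cells, *Kif18a* was at 10.4 CPM in replicate 4 at 6 h, and *Kif22* at 19.4 CPM in replicate 3 at 24 h. Replicate 3 accounted for 6 of the 9.

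The responses to 2 Gy differed between 24 h and 6 h for 7 genes by the interaction term of the fit with the replicate block, beside 3.23% of all genes on the lower side, and for 0 genes in the unpaired fit. The blocked fit called 0 of 10 without replicate 1 or replicate 2, 2 without replicate 4 and 7 without replicate 3. The log2 differences (24 h minus 6 h) were -1.13 for *Kif11*, -1.25 for *Kif15*, -0.95 for *Kif18a*, -0.50 for *Kif20a*, -1.07 for *Kif20b*, -0.78 for *Kif23* and -0.93 for *Kif4*. With the GC and length correction these were, in the same order, -0.79, -0.83, -0.40, -0.46, -0.62, -0.55 and -0.83, and *Kif18a*, *Kif20b* and *Kif23* were no longer called.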

How the results depend on the processing

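No unpaired edgeR fit on the compared groups called a member in any comparison, while the number called moved in these alternatives. At 2 Gy and 24 h DESeq2 called 9, all 24 libraries in 1 fit 9, and the replicate block 10, as it did in DESeq2, with GC and length correction (median log2 fold change -0.89) and with library size alone. Of all genes on the lower side, all 24 libraries called 0.617% and library size alone with the block 5.3%. With a minimum log2 fold change of 1 added, the block kept *Kif11*, *Kif14*, *Kif15*, *Kif20b* and *Kif4*, beside 129 of 15892 genes in either direction. DESeq2 without the block kept these and *Kif23*, beside 68 of 14199 genes. At 2 Gy and 6 h the block with GC and length correction called 2. At 0.1 Gy and 24 h the replicate block called 5, in DESeq2 6, with library size alone 3 (2.02% of all genes on the lower side) and with GC and length correction 1 (median -0.22). Between 2 and 0.1 Gy DESeq2 called 3, the replicate block in DESeq2 7, with GC and length correction 6 and with library size alone 2 (0.25%). For the interaction the replicate block called 7, in DESeq2 8, with GC and length correction 4 and with library size alone 6 (2.94%). A minimum log2 fold change of 1 left *Kif11*, *Kif15* and *Kif20b* with the block, beside 203 of 16866 genes in either direction. In the comparison of times, where the numbers were not taken as pairs, the block called 0, beside 1274 of 15887 genes on the lower side. With GC and length correction it called 3, beside 12.7% of all genes on the lower side. The replicate block changed no other call of a member.

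With each library or each number of the paired fit left out, the number called ranged from 0 to 10 at 2 Gy and 24 h (median -1.14 to -0.94), from 0 to 4 at 2 Gy and 6 h (-0.39 to -0.11), from 0 to 7 at 0.1 Gy and 24 h (-0.53 to -0.33), from 0 to 5 between the doses (-0.66 to -0.59), from 0 to 3 between the times (-0.18 to 0.035), and from 0 to 7 for the interaction (-1.001 to -0.68). At 0.1 Gy and 6 h it stayed at 0 (-0.067 to 0.22). In the same order, these fits called up to 16.4%, 0.217%, 11.8%, 0.802%, 23.7%, 11.3% and 0.0806% of all genes on the lower side. Between the times, *Kif11*, *Kif15* and *Kif20b* were the 3 called by the block without replicate 3, and they were higher at 24 h. That fit called 7192 of 15840 genes, 3758 of them on the lower side. The cause of these shifts was not tested, except that fewer libraries entered each fit. Signs reversed for *Kif18a* at 2 Gy and 6 h (-0.0088 with library size alone, -0.019 with the block and library size alone, -0.14 with the block and GC and length correction) and between the times for *Kif11* (-0.062) and *Kif15* (-0.13) with that correction. Over the unpaired fits with 1 library left out, values of both signs occurred for 2 of 10 members at 2 Gy and 6 h, 9 of 10 at 0.1 Gy and 6 h, 2 of 10 between the times and 0 of 10 in the other comparisons. Of the 10 genes most alike in pattern 9 were the same with library size alone. Member counts of 42 to 1266 per library limit the precision.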
